A study of Mus musculus with 8 samples.

Results

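The 8 genes described here encode enzymes of fatty acid oxidation: Cpt1a, Cpt2, Acadvl, Acadl, Acadm, Hadha, Hadhb and Ehhadh. They were chosen by name, not by a threshold on their peaks, but with earlier results of these data known. They are 8 of 17274 mouse protein-coding genes on autosomes and chromosome X for which a transcription start was listed (RefSeq, GRCm38.p6). This is the assembly that mm10 corresponds to. For each gene, peaks of Mta2, Mbd3 and Zbtb7a were taken whose summit lay in the gene's span or within 20 kb of it. Chromatin came from kidney cortex of mice aged 2 months with the genotype Mta2flx/flx, a floxed Mta2 allele carried by the animals of every group. No Cre is named in the labels for these mice. The groups were Mta2, Mbd3 and Zbtb7a immunoprecipitates and Input chromatin, with 2 biological replicates each and 8 libraries in all. The sample titles carry the same 2 identifiers in every group, so the groups are not shown to come from separate animals. Chromatin was fixed with DSG, a protein-to-protein crosslinker, and then with formaldehyde. A single peak list per factor stood for both mice, so spread between animals could not be measured and no test between factors or genes was possible.

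Fatty acid oxidation breaks acyl chains down to acetyl-CoA and is a main energy source of the proximal tubule, the most abundant cell type of the kidney cortex. Long chains enter mitochondria through the carnitine shuttle, in which Cpt1a acts at the outer membrane and Cpt2 at the inner one. Acyl-CoA dehydrogenases then open each round of oxidation, and the trifunctional protein of Hadha and Hadhb carries out the remaining reactions on long chains. Ehhadh does a similar task in peroxisomes. Mta2 and Mbd3 are subunits of NuRD, a complex that remodels nucleosomes and deacetylates histones, while Zbtb7a is a DNA-binding zinc finger protein known mainly as a repressor.

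The lists held 149855 Mta2, 134248 Mbd3 and 124616 Zbtb7a peaks on autosomes and X. The fold of a peak is the authors' own enrichment value at its summit, and its percentile is the share of peaks in the same list with an equal or lower fold. Folds and percentiles rank peaks within a list. They do not compare amounts of binding between factors. Where no peak was called, enrichment did not pass the authors' peak calling, which does not show absence of binding. The labels state a depth of 100000000 paired-end reads, and the reads behind a peak are not part of the lists. Chromatin of whole cortex mixes cell types, so no peak could be assigned to tubule cells. Of the marker genes looked up, the proximal tubule gene Lrp2 had start folds of 28.9 for Mta2, 31.2 for Mbd3 and 43.9 for Zbtb7a, and Slc34a1 had 14.4, 16.7 and 19.0. The thick ascending limb gene Umod had 24.998, 26.4 and 19.96 and Slc12a1 6.21, 7.65 and 4.67, so start peaks were not limited to proximal tubule markers. The podocyte gene Nphs1 had start summits of Mta2 (fold 3.13) and Zbtb7a (fold 12.8) and none of Mbd3. Of 3 genes of other organs, the liver gene Alb had a Mta2 summit of fold 4.07 alone, and the heart gene Myh6 and the neuronal gene Neurod1 had no summit within 1 kb of a start in any list.

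All 8 genes carried peaks of all 3 factors in their windows. Counted once each, there were 91 Mta2, 81 Mbd3 and 83 Zbtb7a summits in the windows. A gene held between 7 and 19 Mta2 summits, between 4 and 15 Mbd3 summits and between 3 and 20 Zbtb7a summits. Cpt2 had the fewest in each list and Cpt1a, the longest of the genes at 63410 bp, the most for Mta2 and Zbtb7a. The median density over the 8 genes was 1.75 Mta2, 1.55 Mbd3 and 1.62 Zbtb7a summits per 10 kb of window, against 0.856, 0.755 and 0.704 over all genes with a listed start. At least 1 summit lay in the window of 86.2% of all genes in the Mta2 list, 85.4% in the Mbd3 list and 84.9% in the Zbtb7a list, so peaks in the window are common. The strongest peak of the window was in the top 10% of its list by fold at 7 of the 8 genes in the Mta2 list, 8 in the Mbd3 list and 7 in the Zbtb7a list, where 49.3%, 46.9% and 46.8% of all genes reach this. For Mbd3 and Zbtb7a, Hadha and Hadhb count the same peak. The median window was 67.9 kb for the 8 genes and 57.2 kb over all genes, and longer windows hold more peaks.

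**Figure D1:**
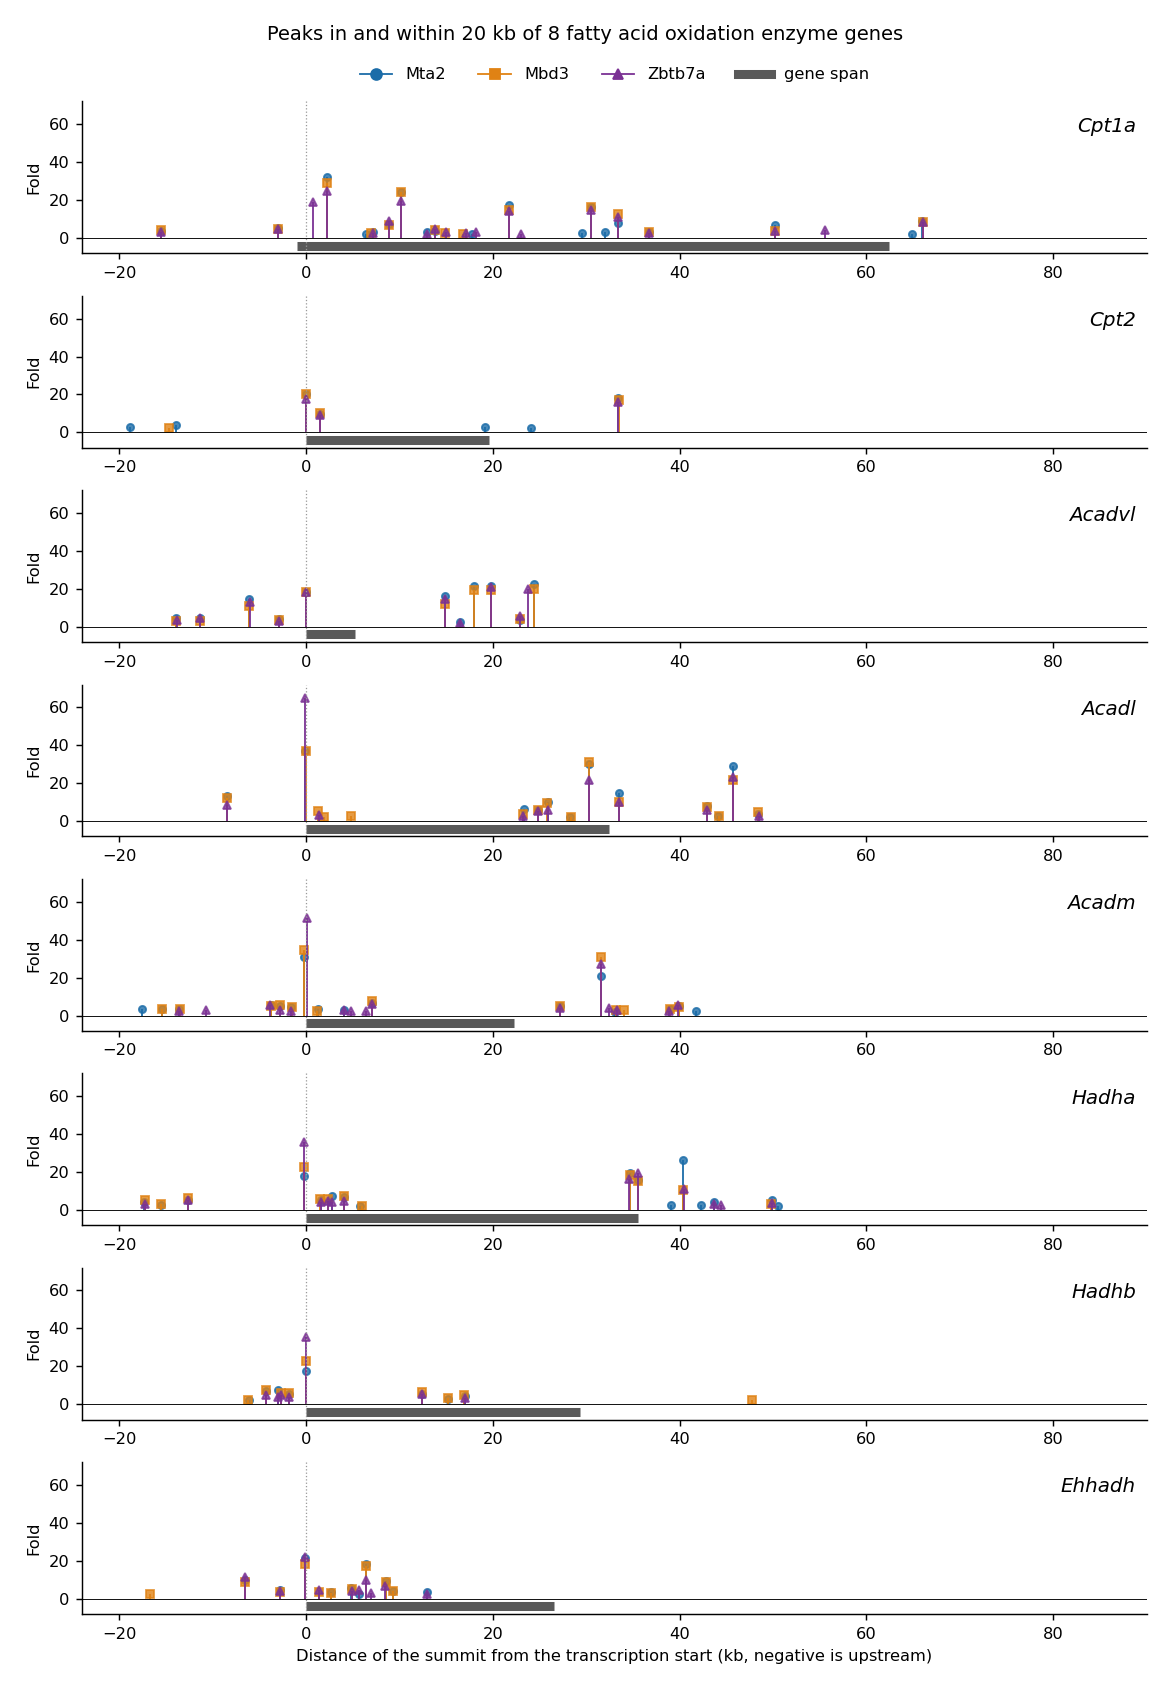
Fold of each peak (vertical axis, the authors' enrichment over background) against the distance of its summit from the transcription start (horizontal axis, kb) for the 8 genes, with circles for Mta2, squares for Mbd3, triangles for Zbtb7a and a grey bar for the gene span. The tallest stems are the Zbtb7a peaks at the starts of Acadl (fold 64.8) and Acadm (fold 51.4).

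Most of these summits lay away from the genes' own starts. Within 1 kb of a start of one of the 8 genes were 6 Mta2, 6 Mbd3 and 7 Zbtb7a summits. A further 41 Mta2, 37 Mbd3 and 40 Zbtb7a summits were inside a gene, and 17, 16 and 14 lay upstream and 27, 22 and 22 downstream. Many were closer to the start of a neighbouring protein-coding gene than to that of any of the 8 genes, namely 44 Mta2, 36 Mbd3 and 35 Zbtb7a summits. At the edge of the windows, the outermost summits counted were a Mta2 summit 19478 bp from Acadm (fold 2.40), a Mbd3 summit 19181 bp from Acadvl (fold 20.04) and a Zbtb7a summit 18542 bp from Acadvl (fold 19.7). The nearest ones left out were at 20762 bp from Cpt2 for Mta2 (fold 3.44), 20747 bp from Cpt2 for Mbd3 (fold 3.83) and 20641 bp from Acadm for Zbtb7a (fold 2.29).

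At the transcription start itself, 7 of the 8 genes had a Mta2 summit within 1 kb, 7 a Mbd3 summit and 8 a Zbtb7a summit. Over all genes with a listed start these shares were 67.8%, 66.5% and 66.5% in the same order of factors, and 64.0% had a summit of all 3, as had 7 of the 8. The exception was Cpt1a, with a Zbtb7a summit alone, and 5.77% of all genes likewise had summits of some but not all factors. None of the 8 lacked a start summit in every list, which 30.2% of all genes did. Hadha and Hadhb share their start peaks, so these counts rest on 6 Mta2, 6 Mbd3 and 7 Zbtb7a peaks. In the Mta2 list, 4 of the 8 genes had a start peak in the top 10% by fold, in the Mbd3 list 7 and in the Zbtb7a list 6, where 24.3%, 22.6% and 24.6% of all genes have such a peak. With the shared peak counted once, these were 4, 6 and 5 distinct peaks. Of 30 other fatty acid oxidation genes, described further on, 18 had such a peak in the Mta2 list, 15 in the Mbd3 list and 18 in the Zbtb7a list, so strong start peaks were frequent in the pathway as a whole. All 3 start peaks were in the top 10% at 3 of the 8, against 16.3% of all genes. For Mta2, some values stood just below this limit: Acadvl stood at percentile 89.98 and the peak shared by Hadha and Hadhb at 89.0.

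**Figure D2:**
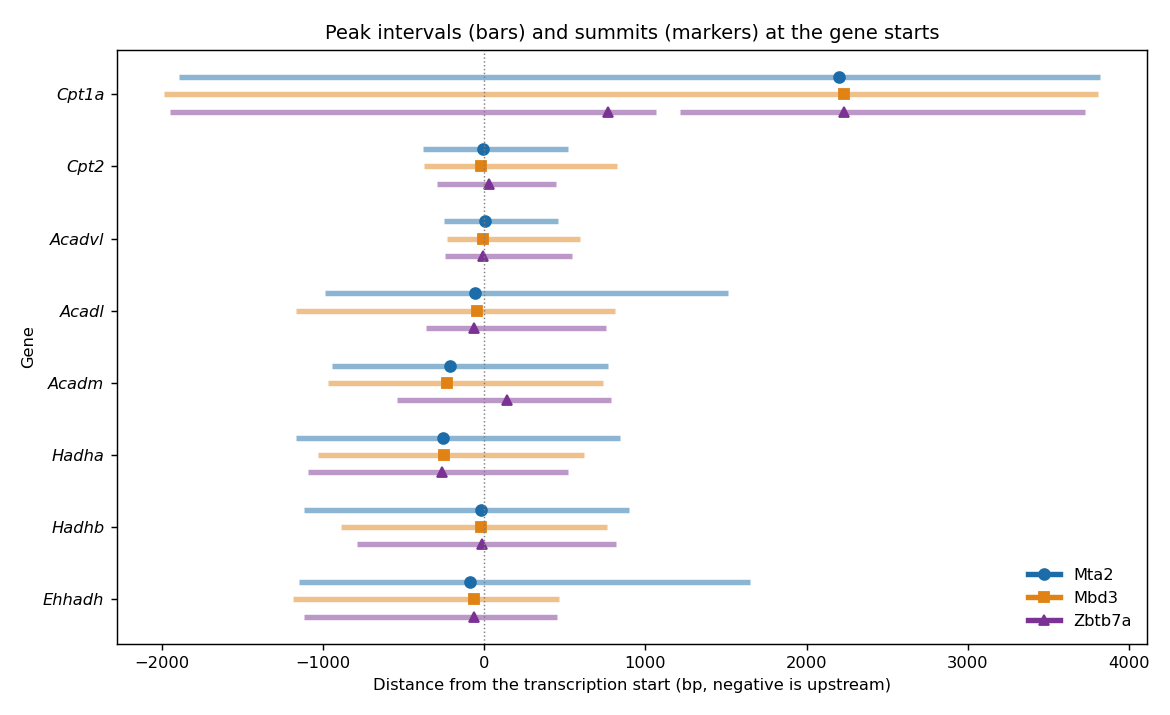
Peak intervals (bars) and summits (markers) around the transcription start of each gene (horizontal axis, bp, negative upstream), for peaks that cover the start or have a summit within 1 kb of it, and the further Zbtb7a peak of Cpt1a. At Cpt1a the Mta2 and Mbd3 summits stand at 2201 and 2229 bp downstream, and at Acadm the Zbtb7a summit stands at 143 bp downstream while Mta2 and Mbd3 lie upstream.

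The carnitine shuttle genes differed from each other. Cpt1a, the rate-limiting entry step (chromosome 19, 3322326 to 3385735, plus strand, start at 3323301), had its strongest Mta2 and Mbd3 peaks inside the gene and not at the start. The Mta2 peak (3321408 to 3327119) had a fold of 32.4 (−log10 q 583, percentile 98.05, rank 2925) with its summit 2201 bp downstream of the start. The Mbd3 peak (3321314 to 3327107) had a fold of 28.8 (−log10 q 542, percentile 97.2) with its summit at 2229 bp. Both intervals ran across the start, at widths of 5712 and 5794 bp that equal or exceed 99.95% and 99.97% of the widths in their lists. Such a layout, an interval over the start with no summit within 1 kb of any start, was found at 1.52% of all genes in the Mta2 list, 1.24% in the Mbd3 list and 0.978% in the Zbtb7a list.

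Zbtb7a was called as separate peaks over the same stretch of Cpt1a. The first (3321353 to 3324368) had a fold of 19.0 (percentile 90.2) and a summit 766 bp downstream of the start. Its percentile was 63.5 among the strongest start peaks of all genes. The second (3324516 to 3327025) had a fold of 24.8 (percentile 94.2) and a summit at 2229 bp, the same position as the Mbd3 summit. Further inside the gene, a region 10.2 kb from the start carried folds of 24.1 for Mta2, 24.4 for Mbd3 and 19.5 for Zbtb7a (summits at 10191, 10205 and 10182 bp). Weaker shared peaks followed at 21.7 kb (folds 17.6, 14.9 and 14.5) and 30.5 kb (folds 16.4, 16.6 and 14.8). Its start window (GRCm38.p6, chr19:3323051-3323350, plus strand, from RefSeq) is shown because the summits of Mta2 and Mbd3 do not fall in it. In this and the following windows the start is base 251, and capitals mark GACCC (a core bound by Zbtb7a), AAGGTCA (bound by ERR receptors), CATGCGC (part of the Nrf1 site) and CCAAT (bound by NF-Y) on either strand.
Cpt1a: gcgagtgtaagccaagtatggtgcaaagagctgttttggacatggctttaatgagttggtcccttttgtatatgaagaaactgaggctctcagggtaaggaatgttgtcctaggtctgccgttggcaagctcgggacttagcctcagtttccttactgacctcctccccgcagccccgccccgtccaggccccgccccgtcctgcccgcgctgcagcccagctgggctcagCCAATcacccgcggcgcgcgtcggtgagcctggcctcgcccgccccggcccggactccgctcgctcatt
It held CCAAT at bases 232 to 236 and no GACCC. Of the 21045 promoter windows of protein-coding genes in the table, 38.5% held CCAAT and 47.2% GACCC.

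Cpt2, the inner membrane transferase (chromosome 4, 107903982 to 107923589, minus strand, start at 107923589), had the fewest summits. Its start carried folds of 20.3 for Mta2, 20.2 for Mbd3 and 17.4 for Zbtb7a (percentiles 91.8, 92.4 and 88.6), with summits at -8, -21 and 29 bp from the start. These were the strongest peaks of the window in all 3 lists. Among the strongest start peaks of all genes, they stood at percentiles 70.3, 74.5 and 58.6. A weaker peak of all 3 factors lay 1.5 kb inside the gene (folds 9.61, 10.3 and 9.25). The only other region shared by all factors was at the neighbouring gene Czib, 33.4 kb downstream of the Cpt2 start (folds 17.95, 17.1 and 16.3). The promoter window of Cpt2 held the ETS factor motif CCGGAAG at bases 138 to 144, on the opposite strand, and 238 to 244. This motif was in 11.7% of all windows and in no other of the 8.

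The acyl-CoA dehydrogenases each act on a different range of chain lengths: Acadvl on very long, Acadl on long and Acadm on medium chains. Among peaks with a summit within 1 kb of the start, those of Acadl and Acadm were the strongest of the 8 genes in every list. Acadvl had lower ones. The Mta2 peak over the Cpt1a start, with its summit 2201 bp downstream, had a fold of 32.4, above the 30.6 of Acadm. Acadl (chromosome 1, 66830839 to 66863309, minus strand, start at 66863309) had a Zbtb7a fold of 64.8 (−log10 q 1277) at 66862551 to 66863669, which was rank 248 of its list. Its Mta2 fold was 37.2 (−log10 q 622, rank 1662) and its Mbd3 fold 36.9 (−log10 q 747, rank 1478). The 3 summits lay at -60, -44 and -64 bp for Mta2, Mbd3 and Zbtb7a, within 20 bp of each other. Ranked by fold among the strongest start peaks of all genes, Acadl was number 449 for Mta2, 326 for Mbd3 and 123 for Zbtb7a. Besides that of Cpt1a, only promoter windows that held GACCC are printed. Start summits of all 3 factors also fell in the windows of Cpt2 and Acadvl, which held no GACCC. The Acadl window (chr1:66863260-66863559, minus strand) is shown with its 3 summits at bases 191, 207 and 187.
Acadl: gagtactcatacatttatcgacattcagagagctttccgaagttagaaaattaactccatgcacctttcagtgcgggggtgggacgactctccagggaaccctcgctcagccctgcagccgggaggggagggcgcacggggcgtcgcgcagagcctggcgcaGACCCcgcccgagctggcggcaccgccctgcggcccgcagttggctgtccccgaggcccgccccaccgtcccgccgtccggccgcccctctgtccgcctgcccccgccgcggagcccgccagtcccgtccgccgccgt
A single GACCC stood at bases 163 to 167, its last base shared with a GC box (GGGCGG on the opposite strand). The window held 34 CpG dinucleotides, the most of the 8 genes, against a median of 13 over all windows. The others held 24 (Hadhb), 22 (Cpt1a), 20 (Hadha), 17 (Cpt2), 14 (Ehhadh), 13 (Acadm) and 9 (Acadvl). A further strong region lay inside Acadl near its 3′ end, 30.3 kb from the start, with folds of 30.0 for Mta2, 31.2 for Mbd3 and 21.9 for Zbtb7a (percentiles 97.4, 97.9 and 92.6). At the start of the neighbour Kansl1l, 45.7 kb from that of Acadl, the folds were 29.2, 21.9 and 23.4.

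Acadm, the medium-chain dehydrogenase (chromosome 3, 153922353 to 153944643, minus strand, start at 153944643), followed with a Zbtb7a fold of 51.4 (−log10 q 1163, rank 674) at 153943855 to 153945182. Mta2 had a fold of 30.6 (−log10 q 662, rank 3600) and Mbd3 of 34.7 (−log10 q 780, rank 1876). Here the summits did not coincide. Those of Mta2 and Mbd3 stood at -214 and -228 bp, upstream of the start, and that of Zbtb7a at 143 bp, inside the gene. The distance of 357 bp between the Zbtb7a and Mta2 summits was at percentile 94.3 of the 11062 genes with start summits of all 3 factors, whose median was 27 bp. The other genes with start summits of all 3 had 4 to 37 bp between Zbtb7a and Mta2. Between Mta2 and Mbd3 the distance at Acadm was 14 bp, against a median of 18 bp over those genes. Its promoter window (chr3:153944594-153944893, minus strand) is shown because it held 3 copies of GACCC, a number reached by 4.21% of all windows.
Acadm: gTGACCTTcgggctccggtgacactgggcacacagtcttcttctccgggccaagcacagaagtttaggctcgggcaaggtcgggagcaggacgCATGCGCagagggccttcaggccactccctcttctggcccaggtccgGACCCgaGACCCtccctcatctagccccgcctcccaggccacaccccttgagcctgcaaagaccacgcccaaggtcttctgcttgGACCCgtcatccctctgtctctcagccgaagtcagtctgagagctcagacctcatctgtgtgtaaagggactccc
GACCC stood at bases 141 to 145, 148 to 152 and 226 to 230, AAGGTCA on the opposite strand at bases 2 to 8 and CATGCGC at bases 94 to 100. These last motifs were in 4.06% and 4.84% of all windows and in no other of the 8. The Mta2 and Mbd3 summits fell at bases 37 and 23, and the Zbtb7a summit lay beyond the window. A matching run of letters does not show that a factor binds there. Inside Acadm, away from the start peak, the strongest shared region, about 7.0 kb from the start, was weak, with folds of 6.60 for Mta2, 7.50 for Mbd3 and 5.88 for Zbtb7a. The next strong region of the window was at the start of the neighbour Rabggtb, with folds of 21.0, 30.8 and 27.0.

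Acadvl, the very long-chain dehydrogenase (chromosome 11, 70010183 to 70015428, minus strand, start at 70015428), is the shortest of the genes at 5246 bp and lies among close neighbours. Its start had nearly the same fold in each list, 18.6 for Mta2, 18.6 for Mbd3 and 18.4 for Zbtb7a (percentiles 89.98, 90.9 and 89.7), with summits at 8, -6 and -10 bp. These start peaks stood at percentiles 64.1, 69.2 and 61.9 among the strongest start peaks of all genes. No summit lay elsewhere inside the gene. The strongest peaks of its window belonged by position to neighbours. For Mta2 (fold 22.5) and Mbd3 (fold 20.04) this was a peak 368 bp from the start of Gabarap, an autophagy gene, and for Zbtb7a (fold 20.8) a peak 90 bp from the start of Phf23. The start of Dvl2 carried folds of 16.1, 12.2 and 14.9. Upstream, a region with summits at -6150, -6134 and -6026 bp from the Acadvl start, nearest to the neuronal scaffold gene Dlg4, carried folds of 14.6, 10.8 and 13.3.

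Hadha and Hadhb, the subunits of the mitochondrial trifunctional protein, lie head to head on chromosome 5 (Hadha at 30119423 to 30154980 on the minus strand, Hadhb at 30155253 to 30184593 on the plus strand). Their starts are 273 bp apart, and in each list a single peak covered both, so the pair is 1 observation at the start although each gene enters the counts per gene. That peak had a fold of 17.8 for Mta2 (−log10 q 332, percentile 89.0), 22.6 for Mbd3 (−log10 q 487, percentile 94.3) and 35.6 for Zbtb7a (−log10 q 806, percentile 97.9). The summits stood close to the Hadhb start, at -20, -22 and -12 bp from it, and at -253, -251 and -261 bp from that of Hadha. Among the strongest start peaks of all genes, the pair was at percentile 60.6 for Mta2, 81.9 for Mbd3 and 91.1 for Zbtb7a. The Hadhb window (chr5:30155003-30155302, plus strand), which shares 228 bases with that of Hadha, is shown with the 3 summits at its bases 231, 229 and 239.
Hadhb: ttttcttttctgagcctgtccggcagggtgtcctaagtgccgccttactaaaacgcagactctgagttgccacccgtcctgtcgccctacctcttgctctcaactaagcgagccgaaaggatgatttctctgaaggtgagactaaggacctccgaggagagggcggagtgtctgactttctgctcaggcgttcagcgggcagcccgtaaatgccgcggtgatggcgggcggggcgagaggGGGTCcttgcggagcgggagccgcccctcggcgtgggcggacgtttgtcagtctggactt
GACCC stood on the opposite strand at bases 241 to 245, near the summits of all 3 factors.

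Away from the shared start, the strongest peaks of the Hadha window lay near or beyond its 3′ end. About 34.7 kb from its start the folds were 19.4 for Mta2, 18.2 for Mbd3 and 16.1 for Zbtb7a, and at about 35.6 kb they were 15.9, 15.5 and 19.2. A region at 40.4 kb, beyond the end of Hadha and inside the span of the neighbour Garem2, had a Mta2 fold of 26.4 (percentile 96.0) beside 10.7 for Mbd3 (percentile 77.8) and 10.9 for Zbtb7a (percentile 78.0). It was the strongest Mta2 peak in the Hadha window, above the one at the start. The body of Hadhb held few peaks, with a shared region 12.4 kb from the start at folds of 5.21, 6.55 and 5.23.

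Ehhadh, the peroxisomal bifunctional enzyme and a well-known target of the fatty acid receptor Ppara (chromosome 16, 21761285 to 21787834, minus strand, start at 21787834), had start folds of 21.3 for Mta2, 18.3 for Mbd3 and 21.9 for Zbtb7a (percentiles 92.7, 90.6 and 92.5). Its summits stood at -85, -65 and -64 bp. Against the strongest start peaks of all genes, those of Ehhadh were at percentiles 73.6, 68.0 and 71.3. The Mta2 interval was the widest start interval of the 8 after Cpt1a, at 2802 bp, since it also ran over a stretch downstream where Mbd3 and Zbtb7a had separate peaks (folds 3.82 and 4.78). Inside the gene, 6.4 kb from the start, lay a region with folds of 18.3 for Mta2 and 17.3 for Mbd3 (percentiles 89.7 and 89.5) and of 10.1 for Zbtb7a (percentile 75.9). Upstream at 6.5 kb the folds were 9.95, 9.07 and 11.2. Its promoter window (chr16:21787785-21788084, minus strand) is shown with its summits at bases 166, 186 and 187.
Ehhadh: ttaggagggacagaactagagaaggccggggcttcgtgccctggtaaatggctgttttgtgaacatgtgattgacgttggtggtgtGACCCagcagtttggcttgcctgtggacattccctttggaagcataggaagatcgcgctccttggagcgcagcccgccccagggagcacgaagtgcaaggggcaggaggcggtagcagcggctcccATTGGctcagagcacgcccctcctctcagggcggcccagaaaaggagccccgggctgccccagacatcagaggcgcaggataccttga
GACCC stood at bases 87 to 91 and CCAAT on the opposite strand at bases 213 to 217. In all, 4 of the 8 windows held GACCC, those of Acadl, Acadm, Hadhb and Ehhadh, against 47.2% of all windows. The GC box GGGCGG was in 6 of the 8 and in 46.7% of all windows. The E-box CACGTG was in none of the 8 and in 7.91% of all windows. The TATA box TATAAA was likewise in none of them and in 12.7% of all windows. AGGTCA alone was in 3 of the 8, those of Cpt1a, Acadvl and Acadm, and in 14.6% of all windows, its copy at Acadm being part of the AAGGTCA match. A direct repeat of this element with 1 base between the copies, the form bound by Ppara, was in none of the 8 and in 0.0475% of all windows.

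The start folds of the 8 genes ran from 17.4 at Cpt2 to 64.8 at Acadl for Zbtb7a. Without Cpt1a, which had no such summit, they ran from 17.8 at Hadha and Hadhb to 37.2 at Acadl for Mta2 and from 18.3 at Ehhadh to 36.9 at Acadl for Mbd3. The Zbtb7a list as a whole reached higher, with a highest start fold over all genes of 465, against 113 in the Mta2 list and 82.3 in the Mbd3 list. The order for Zbtb7a was Acadl, Acadm, Hadha with Hadhb, Ehhadh, Cpt1a, Acadvl and Cpt2. With no spread between mice, whether neighbours in that order differ could not be judged, and from Ehhadh down the folds lay between 17.4 and 21.9. In the top 1% of their list were the Zbtb7a start peaks of Acadl and Acadm, and 3.05% of all genes have such a peak. No Mta2 or Mbd3 start peak of the 8 genes was in the top 1%, where 2.40% and 1.70% of all genes have one. At 4 of the 7 genes with start summits of all 3 factors (Acadl, Acadm, Hadha and Hadhb, the last pair sharing a peak), the Zbtb7a percentile was above both others, against 39.7% of all such genes.

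The rest of the pathway was read from 41 other genes of fatty acid oxidation, of which 30 had a listed start. A start summit was present at 28 of the 30 for Mta2, 28 for Mbd3 and 29 for Zbtb7a. The median start fold of genes with a summit was 20.3 for Mta2 over 7 of the 8 enzyme genes, 21.5 over the other pathway genes and 15.3 over all genes. For Mbd3 the medians were 22.6, 19.6 and 14.1, and for Zbtb7a 28.7, 20.5 and 14.9. With the peak shared by Hadha and Hadhb counted once, the medians of the enzyme genes were 20.8 (Mta2), 21.4 (Mbd3) and 21.9 (Zbtb7a), each within 2 fold units of the medians of the other pathway genes. For Zbtb7a all 8 enzyme genes and 29 of the other pathway genes had one, and the folds of the other genes ran from 2.94 to 112, a range that includes all 8. Abcd3, a peroxisomal fatty acid transporter, had the highest Zbtb7a fold of the other genes at 112 and the highest Mbd3 fold at 37.8, with a Mta2 fold of 41.7. Crot, which moves chains out of peroxisomes as carnitine esters, had a Zbtb7a fold of 79.1, and Eci3, an enoyl-CoA isomerase, a Mta2 fold of 42.2. Pdk4, a kinase that shifts fuel use from glucose to fat, had a Mbd3 fold of 37.0. Acaa1b had no summit within 1 kb of a start in any list, and Acsl6 had only a Zbtb7a summit of fold 2.94.

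**Figure D3:**
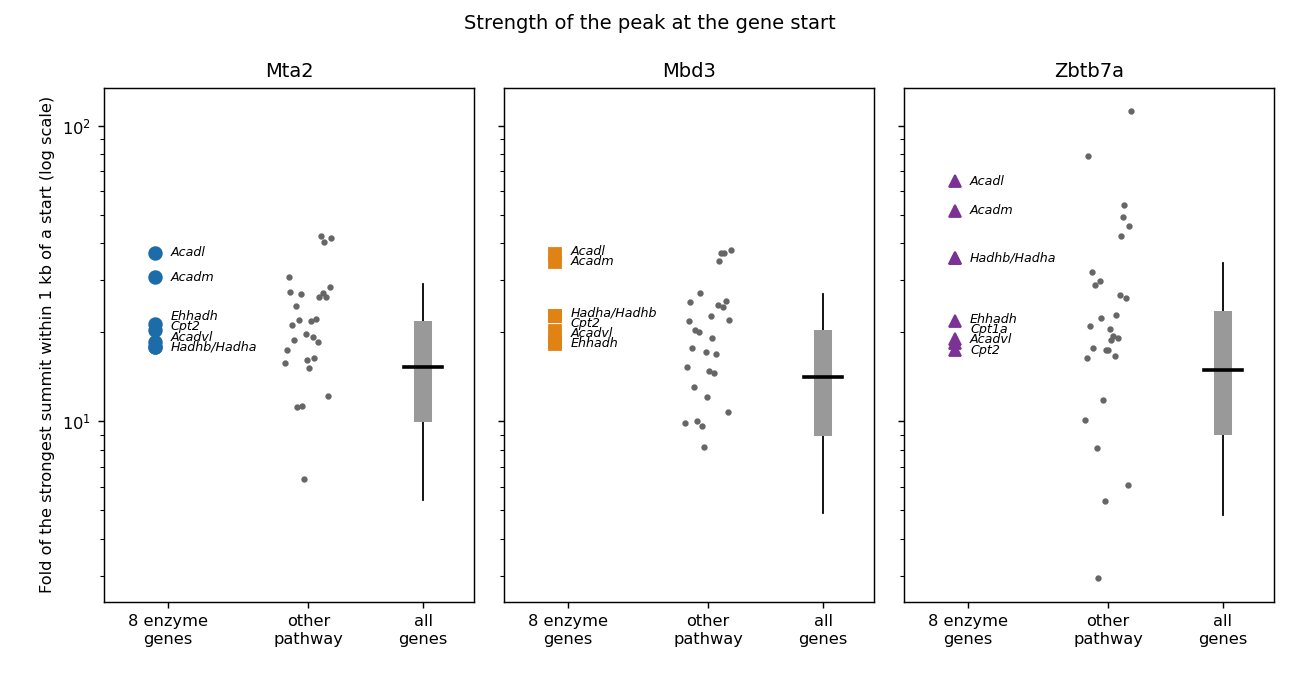
Fold of the strongest summit within 1 kb of a start (log axis) in each list, for the 8 enzyme genes (labelled markers, 7 of them for Mta2 and Mbd3), the other pathway genes (dots) and all protein-coding genes with such a summit (bar from the 25th to the 75th percentile, thin line from the 10th to the 90th, heavy line at the median). For Zbtb7a the enzyme genes reach from 17.4 to 64.8, and the median of all genes is 14.9.

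Likeness to other pathway genes was measured as the mean absolute difference in start percentile over the 3 lists. Pdk4 was closest to Acadl (0.212 percentile points) and to Acadm (0.689). Echs1, the enoyl-CoA hydratase, was closest to Acadvl (0.766) and Acad12 to Cpt2 (1.25). Hsd17b10 was closest to Ehhadh (1.03) and Acads, the short-chain dehydrogenase, to the Hadha and Hadhb pair (2.60). Cpt1a had no start summit for Mta2 or Mbd3 and was not compared. Near the top of a list, percentiles lie close even where folds differ. For Zbtb7a, Pdk4 had a fold of 53.7 (percentile 99.55) and Acadl of 64.8 (percentile 99.80). The differences are therefore not comparable from one enzyme gene to another.

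Peaks of the 3 factors in the windows merged into 104 regions, of which 62 (59.6%) held all 3. Mta2 alone held 12 regions, Mbd3 alone 7 and Zbtb7a alone 7, while Mta2 with Mbd3 held 8, Mta2 with Zbtb7a 7 and Mbd3 with Zbtb7a 1. The shares of such regions over the whole lists were not counted, so these numbers describe the windows alone. Of the summits in the windows, 69.2% of Mta2 (exact 95% interval 58.7 to 78.5), 80.2% of Mbd3 (69.9 to 88.3) and 81.9% of Zbtb7a (71.95 to 89.5) belonged to a peak that overlapped both other lists. These intervals cover counting error only and treat summits as independent, though many lie in the same windows. They serve as no test, and the shares over the whole lists were 68.4%, 78.6% and 86.6%. Every peak in the top 10% of its list was shared by all 3 factors, 14 for Mta2, 15 for Mbd3 and 13 for Zbtb7a, and so were 99.97%, 100% and 99.99% of such peaks in the whole lists. Of peaks with a fold under 5, 18 of 46 were shared for Mta2, 22 of 38 for Mbd3 and 29 of 44 for Zbtb7a. These were 39.1%, 57.9% and 65.9%, beside 39.3%, 58.1% and 73.9% over the whole lists, so the sharing of weak peaks was near that of the lists for Mta2 and Mbd3.

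Among the regions with all 3 factors, percentiles of Zbtb7a and Mta2 within their lists were set side by side, as a description of ranks. A region was placed by its Mta2 summit, so the region over the Cpt1a start counted as away from a start. Away from the starts of protein-coding genes, the Zbtb7a percentile was above that of Mta2 in 11 of 44 regions (25%, against 31.9% over the whole lists), and the median difference, Zbtb7a minus Mta2, was -6.83 percentile points. Within 1 kb of a start, those of neighbours included, it was above in 6 of 18 regions (33.3%, against 45.3%), with a median of -1.07. Over the whole lists the medians were -5.10 over 90004 regions away from starts and -0.71 over 11148 regions at starts, the same order. The largest positive difference among the starts of the 8 genes was that of Hadha and Hadhb (8.82 points), followed by Acadm (1.86) and Acadl (0.91). A high Mta2 percentile leaves little room for a positive difference, so this order does not rank the genes. The Mta2 percentile was 89.0 at Hadha and Hadhb, 97.6 at Acadm and 98.9 at Acadl. Mbd3 stood above Mta2 in 24 of 44 regions away from starts (54.5%, median difference 0.38), against 37.7% over the whole lists (median -2.14). At starts it did so in 7 of 18 (38.9%, median -1.11), near the 36.0% and -1.18 of the whole lists.

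**Figure D4:**
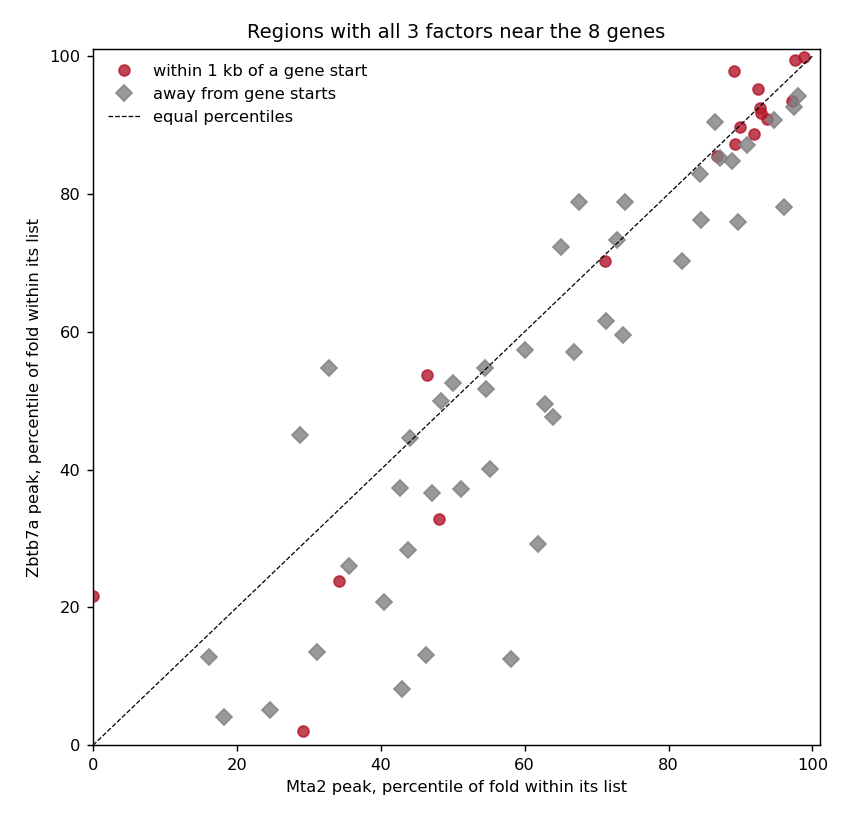
Percentile of the Zbtb7a peak within its list (vertical axis) against that of the Mta2 peak within its own (horizontal axis) for the 62 regions with all 3 factors in the windows of the 8 genes, with circles within 1 kb of a protein-coding gene start, diamonds elsewhere and a dashed line at equal percentiles. Away from starts 11 of 44 diamonds lie above the line, and the points near the upper right corner include the starts of Acadl and Acadm.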

How the data were processed

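ChIP-seq of Mta2, Mbd3 and Zbtb7a in kidney cortex was read from 3 peak lists, 1 per factor. The submitters' processing notes name mm10 and the tools MACS2, Bowtie2, bedtools and deepTools, with versions, settings and the roles of Input and of the 2 mice in peak calling not given in the sources used here. Without a header, the lists follow the narrowPeak layout. The deposited values used were the fold (a ratio over background), the −log10 q and the summit offset. The lowest −log10 q was 1.3. The labels state a depth of 100000000 paired-end reads. The lists hold no reads per library, so no counting error per peak could be given.

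Lines on chromosome Y were left out, and positions were counted from 1. Starts came from the RefSeq promoter table (GRCm38.p6), and its windows of 300 bases hold 250 before the start and 50 from it on. A gene with several listed starts counted if a summit lay near any of them. Overlap meant 1 bp or more. Every one of the 8 members was named. Of the other pathway genes, those with the 2 highest start folds per list, up to 4 in alphabetical order without a start summit and the nearest to each member by percentile were named; Acsl6 was added after its values were seen. The members and gene lists were chosen with earlier results of these data known. No test was run, as each list holds no value per mouse. Alternatives changed windows, peak filters, overlap and ranking. Python 3.11.15, pandas 2.3.3, numpy 2.4.6 and scipy 1.17.1 were used. Scripts were tested on simulated peaks.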

Additional observations from a re-analysis of the deposited data

How the results depend on the processing

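No paired analysis was possible because each list merges both mice and no result comes from a test between samples, and for the same reason no replicate could be left out. The counts of genes with a start summit changed by at most 1 gene with 0.5 or 3 kb around the start, with only peaks of −log10 q 10 or more, or of fold 5 or more, with peak intervals over the start, and with both ends of the gene span (the last chosen after seeing the data), with Cpt1a the gene that moved. Without flanks the windows held 42 Mta2, 37 Mbd3 and 43 Zbtb7a summits, and among peaks of fold 5 or more they held 45, 43 and 39. Limited to −log10 q of 10 or more, Zbtb7a had 52 summits. The strongest peak of the window was in the top 5% of its list at 4 genes in the Mta2 list, 3 in the Mbd3 list and 4 in the Zbtb7a list. In the top 10% it was, without flanks, at 3 genes in each list. Within 1 kb of the start it was so at 4 genes in the Mta2 list, where 24.3% of all genes have such a peak. The shares of all genes were not counted for the top 5% or without flanks. Without flanks, summits upstream of a start at the edge of the span drop out, as at Acadl and Hadhb. Strong peaks beyond the gene drop out too, as at Acadvl, while the highest Zbtb7a folds of Acadm and Cpt2 stayed. When 50% of both intervals had to overlap, 57.1% of Mta2, 67.9% of Mbd3 and 62.65% of Zbtb7a summits were in all 3 lists. For Zbtb7a it was 69.9% with summits within 200 bp and 92.3% among peaks of −log10 q 10 or more. The highest fold of a gene changed in 17 cases and stayed in 5 without flanks, where Acadvl had no Mbd3 or Zbtb7a summit, and with 50 kb it changed in 5 and stayed in 19. A weak peak near the authors' threshold cannot be told from background here, as the lists give neither reads nor spread between mice.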
